A study of Mus musculus with 13 samples.

Results

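The 10 genes described here encode the ERBB family of receptor tyrosine kinases (Egfr, Erbb2, Erbb3 and Erbb4) and 6 growth factors of the EGF family (Areg, Btc, Egf, Ereg, Hbegf and Tgfa). They were chosen by gene symbol, and all 10 were found among the 23951 symbols of the deposited tables. Expression was measured by RNA sequencing of whole mammary glands in 13 libraries. Conditional Jak1 knockout females were sampled at day 2 of involution (4 libraries, named here by the mouse's number after an M: M43196, M43767, M44176 and M44440) and wildtype controls at the same stage (3 libraries, M44448, M43768 and M43914). At day 7 of lactation there were 3 libraries of knockouts (M44174, M42734 and M43767) and 3 libraries of controls (M42186, M43768 and M44175). The study asked what the tyrosine kinase JAK1 contributes to cytokine signalling and to remodelling of the gland. The promoter that drives the deletion, the deleted exons, the strain and the age were not stated in the labels. Mouse numbers M43768 and M43767 stand at both stages, and whether the same animal was sampled at both is not stated.

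ERBB receptors are cell surface kinases that pair on ligand binding and activate the RAS and ERK cascade and the PI3 kinase and AKT cascade. EGFR binds all 6 ligands described here, ERBB4 binds betacellulin, HB-EGF, epiregulin and the neuregulins, ERBB3 binds neuregulins and has little kinase activity of its own, and ERBB2 has no known soluble ligand and acts as a partner of the others. The ligands are made as membrane-bound precursors and released by ADAM proteases. In the mammary gland amphiregulin acts in ductal growth under oestrogen, ERBB4 acts with STAT5 in secretory differentiation, and EGF is a growth factor present in milk.

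The promoter windows of 3 genes are shown, because Egf and Erbb2 lay furthest apart from each other between the stages and Areg was detected at involution only in knockout libraries. Each window runs from 250 bases before to 50 bases after the outermost start in the RefSeq annotation of GRCm38.p6, 5′ to 3′ on the gene's strand. The authors aligned to mm9, so the coordinates serve to identify the sequence and are not those of the deposited values. Capitals mark matches to any of 4 motifs, searched on both strands: the STAT palindrome TTCNNNGAA, the cyclic AMP response element TGACGTCA, the TATA box TATAAA and the GC box GGGCGG.
Egf, chr3:129755273-129755572, minus strand: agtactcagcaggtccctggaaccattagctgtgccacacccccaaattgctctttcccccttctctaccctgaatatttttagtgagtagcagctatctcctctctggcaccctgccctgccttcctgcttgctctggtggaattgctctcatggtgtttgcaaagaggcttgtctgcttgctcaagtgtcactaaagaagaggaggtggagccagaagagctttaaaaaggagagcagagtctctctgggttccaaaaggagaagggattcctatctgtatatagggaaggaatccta
Erbb2, chr11:98412234-98412533, plus strand: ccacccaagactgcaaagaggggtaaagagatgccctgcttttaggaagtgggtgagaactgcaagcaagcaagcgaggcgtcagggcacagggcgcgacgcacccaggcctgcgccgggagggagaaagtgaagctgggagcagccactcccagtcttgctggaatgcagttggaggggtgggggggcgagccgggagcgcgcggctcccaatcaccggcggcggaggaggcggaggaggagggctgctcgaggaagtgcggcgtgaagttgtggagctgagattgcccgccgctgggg
Areg, chr5:91139349-91139648, plus strand: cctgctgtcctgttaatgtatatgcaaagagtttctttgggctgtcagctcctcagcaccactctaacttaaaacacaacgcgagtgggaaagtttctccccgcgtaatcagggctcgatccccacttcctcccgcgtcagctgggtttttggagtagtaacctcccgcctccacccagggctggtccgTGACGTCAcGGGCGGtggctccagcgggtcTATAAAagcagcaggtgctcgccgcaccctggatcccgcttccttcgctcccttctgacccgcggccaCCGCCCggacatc
The Areg window holds TGACGTCA at -61, TATAAA at -31 and GGGCGG at -52 and, on the other strand, at 38 (first base of the match, counted from the annotated start), and these matches do not overlap. No match to the 4 motifs was found in the Egf and Erbb2 windows. Of 32851 promoter windows of the same length, 1.79% held TGACGTCA, 13.6% TATAAA, 35.7% GGGCGG and 8.3% TTCNNNGAA. Of the 10 genes, 7 had a window in the table, and none of the 7 held TTCNNNGAA.

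The targeted gene, Jak1, did not separate the genotypes at the level of the whole gene. It stood at 23.0, 22.2, 26.3 and 17.3 FPKM (fragments scaled to transcript length and to library size) in knockouts M43196, M43767, M44176 and M44440, and at 24.3, 24.0 and 24.6 FPKM in controls M44448, M43768 and M43914 at involution. At lactation it averaged 10.3 ± 0.853 FPKM in the knockouts and 11.5 ± 4.57 FPKM in the controls (SD, n = 3 each). The log2 difference was -0.12 ± 0.17 at involution and -0.0043 ± 0.35 at lactation (SE, adjusted p = 0.989 and 0.999 with limma). Because the deleted exons are not stated, a value over the whole gene does not check the labels, and knockout below means a library labelled so.

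Depth was estimated from the ratios between pairs of libraries at which low values piled up, as a multiple of the table's mean. At involution the shallowest library was M43196, at 0.485, and the deepest M44440, at 1.502, both knockouts. At lactation control M44175 was shallowest, at 0.723, and knockout M44174 deepest, at 1.29. Some zeros may stand for entries without an estimate: the casein genes Csn1s1 and Csn2, which a lactating gland transcribes abundantly, are listed at 0 in all 13 libraries. A zero is therefore written as listed at 0. In whole tissue, fewer cells of a type and less transcript per cell cannot be told apart.

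Egf, the growth factor found in milk, had the largest difference between the stages of the 10 members. At involution it stood at 1.92, 1.81, 3.04 and 1.85 FPKM in knockouts M43196, M43767, M44176 and M44440, and at 1.38, 1.95 and 2.52 FPKM in controls M44448, M43768 and M43914. At lactation it stood at 31.4, 28.4 and 36.4 FPKM in knockouts M44174, M42734 and M43767, and at 25.9, 35.8 and 27.8 FPKM in controls M42186, M43768 and M44175. The 7 involution libraries, at 1.38 to 3.04 FPKM, all lay below the 6 lactation libraries, at 25.9 to 36.4 FPKM, and within each stage knockouts and controls overlapped.

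The tables of the stages may have been normalized separately, so no test was made between stages and the levels are set side by side. Deposited values also differ between the stages for most genes. The 12667 genes that reached 1 FPKM in 3 or more of the 13 libraries were compared on the log2(FPKM + 1) scale. Their median difference between stages was 1.09, higher at involution, and the cause of this shift was not tested. Against that shift Egf differed by -3.39 (involution minus lactation), the 15th lowest of the 12667 genes. The value was -3.40 among knockouts and -3.39 among controls. Involution libraries all lay below lactation libraries in 1.42% of these genes, and all lay above them in 64.8%. With the 13 libraries rescaled jointly by their median ratios, the Egf difference was -4.42, and the median over all genes was 0.19. On that scale all involution libraries lay below all lactation libraries in 9.77% of the genes.

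**Figure D1:**
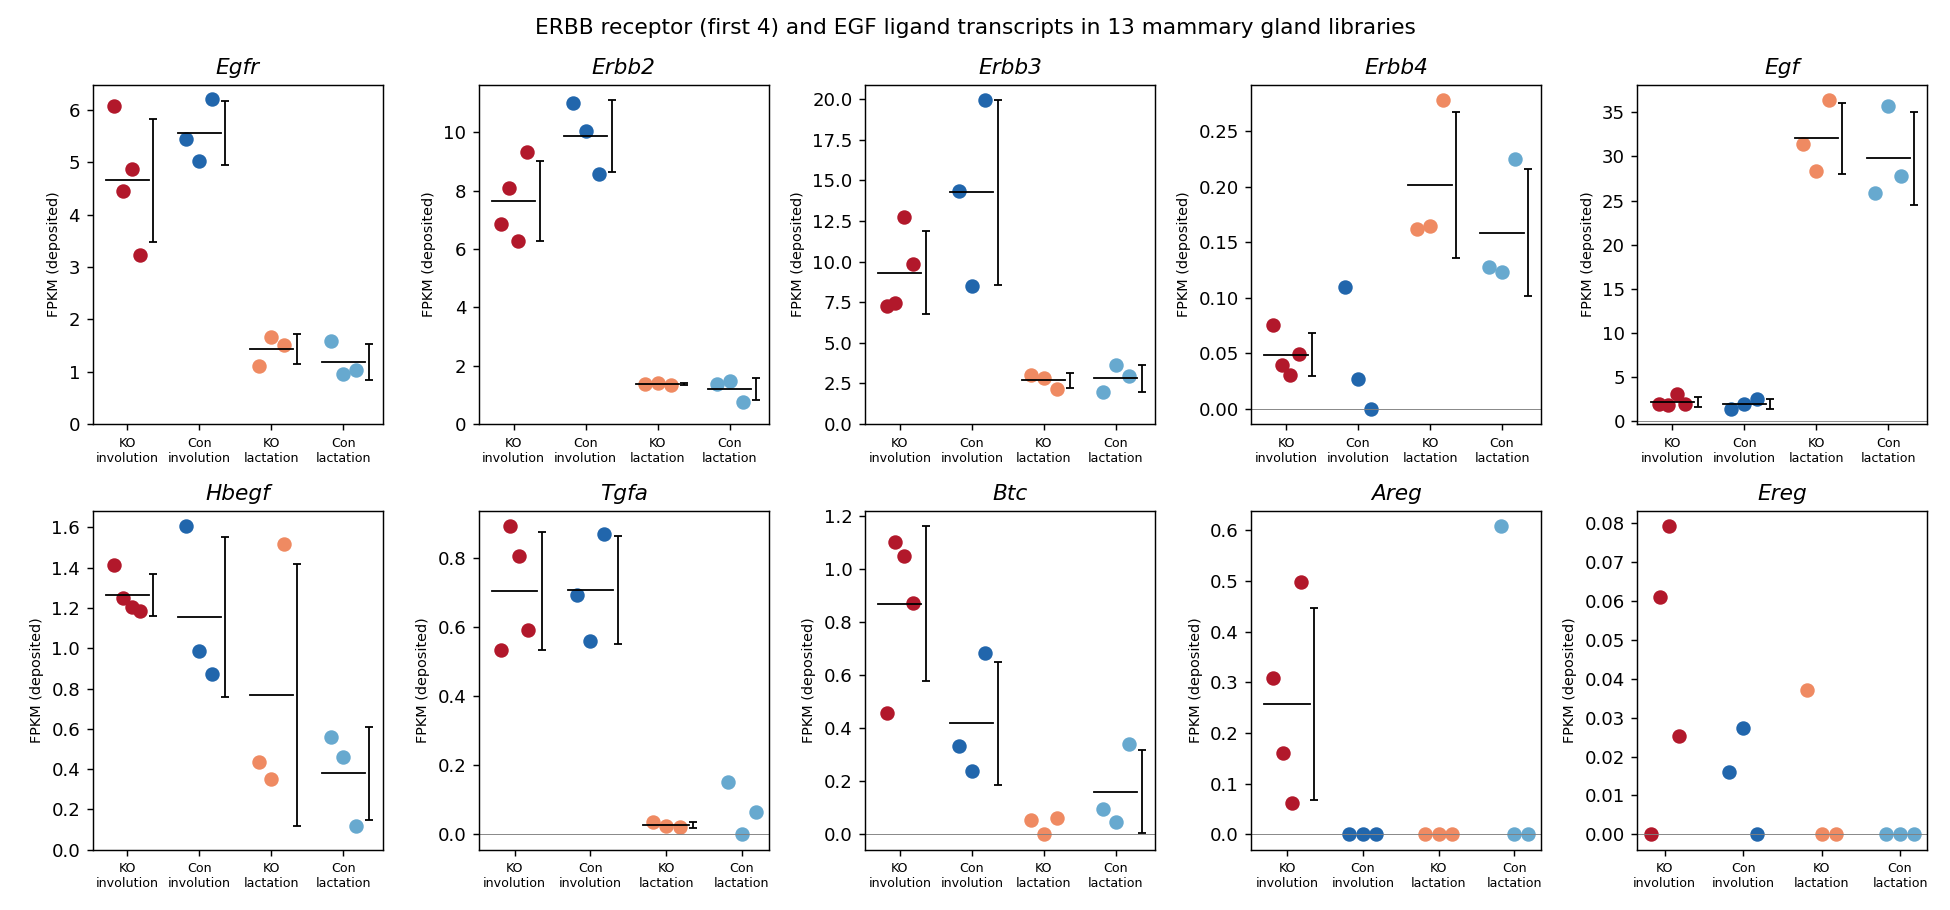
Deposited FPKM of the 4 receptors and 6 ligands in each library, by group (KO, knockout; Con, control); each point is a library, horizontal lines are group means and vertical bars 1 SD, both left out where a library is listed at 0. Egf sits at 1.38 to 3.04 FPKM at involution and at 25.9 to 36.4 FPKM at lactation, whereas Egfr, Erbb2 and Erbb3 are higher at involution on this scale.

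Egfr, Erbb2 and Erbb3 ran the other way on the deposited scale. Erbb2, the receptor without a known ligand, stood at 6.85, 8.11, 6.29 and 9.34 FPKM in knockouts M43196, M43767, M44176 and M44440 at involution and at 11.02, 10.05 and 8.57 FPKM in controls M44448, M43768 and M43914. At lactation it was nearly level at 1.37, 1.39 and 1.34 FPKM in knockouts M44174, M42734 and M43767, and stood at 1.37, 1.46 and 0.759 FPKM in controls M42186, M43768 and M44175. Every involution library thus lay above every lactation library. The difference between stages was 2.06 on the log2 scale as deposited and 1.12 after joint rescaling, and the stages did not overlap on either scale. After joint rescaling, all involution libraries lay above all lactation libraries in 15.2% of the genes.

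Erbb3, the receptor of neuregulins, was the most abundant of the 4 receptors by group mean at both stages. At involution it stood at 7.27, 7.46, 12.7 and 9.84 FPKM in knockouts M43196, M43767, M44176 and M44440 and at 14.3, 8.53 and 19.96 FPKM in controls M44448, M43768 and M43914. At lactation it stood at 3.05, 2.85 and 2.15 FPKM in knockouts M44174, M42734 and M43767 and at 1.95, 3.61 and 2.93 FPKM in controls M42186, M43768 and M44175. The controls at involution had the widest spread of any Erbb3 group, 8.53 to 19.96 FPKM, and the knockouts overlapped it.

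Egfr, which binds all 6 ligands, stood at 6.07, 4.46, 4.87 and 3.23 FPKM in knockouts M43196, M43767, M44176 and M44440 at involution and at 5.45, 5.02 and 6.21 FPKM in controls M44448, M43768 and M43914. At lactation it stood at 1.11, 1.66 and 1.51 FPKM in knockouts M44174, M42734 and M43767, and at 1.58, 0.963 and 1.02 FPKM in controls M42186, M43768 and M44175. Egfr and Erbb3 were higher in every involution library than in every lactation library as deposited (log2 difference 1.38 and 1.67). After joint rescaling the differences were 0.48 and 0.62, and the stages overlapped for both genes.

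**Figure D2:**
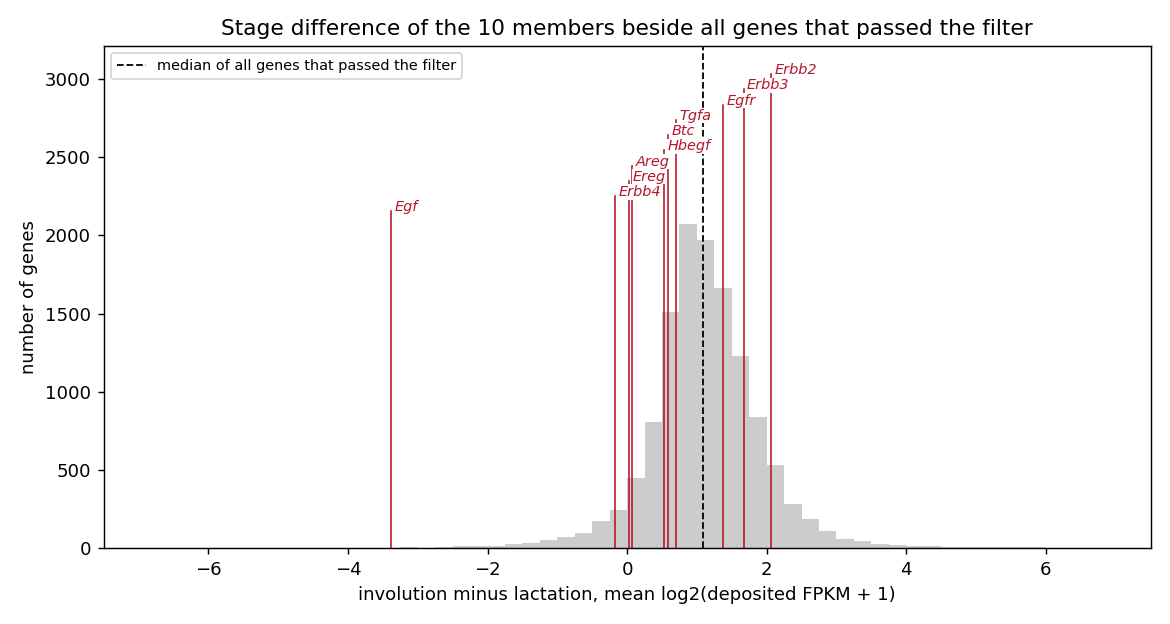
Difference between stages (involution minus lactation, mean log2 of deposited FPKM + 1) for the 10 members (red lines, drawn at heights that only separate the labels) over the histogram of the 12667 genes that passed the filter (grey, bins of 0.25); the dashed line is their median, 1.09. Egf lies at -3.39 in the low tail and Erbb2 at 2.06, and Areg, Btc, Ereg, Erbb4 and Tgfa are drawn for reference although they did not pass the filter.

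Ratios within a library do not depend on how a library or a table was scaled. The FPKM of Egf was 0.316 to 0.623 of that of Egfr in the knockouts and 0.253 to 0.405 in the controls at involution, against 17.0 to 28.3 times in the knockouts and 16.3 to 37.1 times in the controls at lactation. Relative to Erbb2, Egf lay at 0.125 to 0.483 in the 7 involution libraries and at 18.9 to 36.6 in the 6 lactation libraries. Relative to Erbb3 it lay at 0.0964 to 0.264 at involution and at 9.47 to 16.9 at lactation. Egf transcript was thus below that of each of these 3 receptors in all 7 involution libraries and above each of them in all 6 lactation libraries. Set against Epcam, a surface protein of epithelial cells, Egf lay at 0.00576 to 0.0124 at involution and at 0.295 to 0.621 at lactation. Against the luminal keratin gene Krt18 it lay at 0.00222 to 0.00711 and at 0.525 to 0.847, and against the prolactin receptor gene Prlr at 0.185 to 0.459 and at 2.85 to 4.78. The 10 luminal epithelial markers themselves summed to 1565 to 2633 FPKM in the knockouts and 1666 to 2245 FPKM in the controls at involution, and to 545 to 624 FPKM and 634 to 693 FPKM at lactation. Unlike the ratios, these sums carry the deposited scale, on which the median gene was 1.09 higher (log2) at involution. After joint rescaling, all involution libraries lay above all lactation libraries for 5 of the 10 markers and below them for 2.

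**Figure D3:**
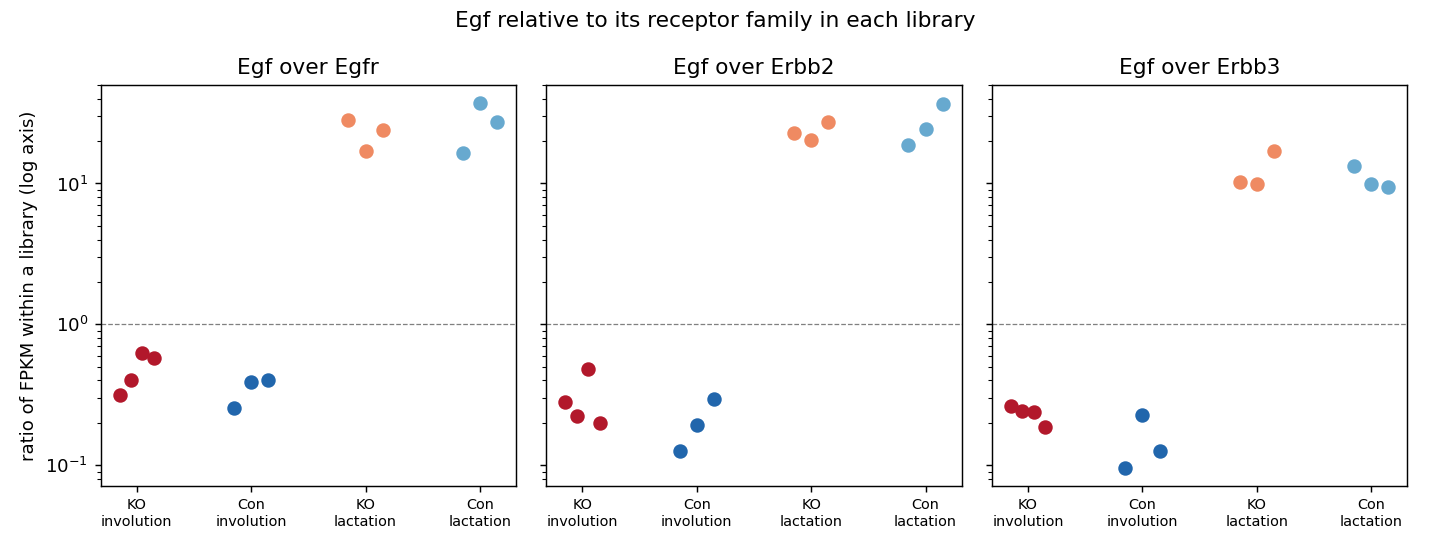
Ratio of the FPKM of Egf to that of Egfr, Erbb2 and Erbb3 in each library (points, log axis), by group (KO, knockout; Con, control); the dashed line marks a ratio of 1. All 7 involution libraries lie below the line, at most at 0.623, and all 6 lactation libraries above it, at least at 9.47.

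Within the receptors, Erbb3 exceeded Egfr in all 13 libraries, at 1.198 to 3.21 times in the 7 involution libraries and 1.23 to 3.75 times in the 6 lactation libraries. Egfr stood at 0.345 to 0.887 of the Erbb2 level in the 7 involution libraries and at 0.659 to 1.35 in the 6 lactation libraries. Egfr was thus below Erbb2 in every involution library and on either side of it at lactation. Erbb3 stood at 0.849 to 2.33 times Erbb2 at involution and at 1.42 to 3.86 times Erbb2 at lactation, so that these neighbours did not separate at involution. Erbb4, the receptor that works with STAT5, was the least abundant. It stood at 0.0757, 0.0394, 0.0307 and 0.0489 FPKM in knockouts M43196, M43767, M44176 and M44440 at involution and at 0.110, 0.0264 and listed at 0 in controls M44448, M43768 and M43914. At lactation it stood at 0.162, 0.165 and 0.278 FPKM in knockouts M44174, M42734 and M43767 and at 0.128, 0.124 and 0.225 FPKM in controls M42186, M43768 and M44175. All involution libraries lay below all lactation libraries on both scales, and the share of Erbb4 in the summed FPKM of the 4 receptors was 0 to 0.373% at involution and 2.01 to 5.26% at lactation. These values rest on few fragments. Multiplied by relative depth, the Erbb4 values of a stage lay on whole multiples of a common step (within 0.05), 2, 2, 2 and 4 steps in the knockouts and 7, 1 and 0 steps in the controls at involution. At lactation there were 9, 7 and 14 steps in the knockouts and 6, 4 and 7 steps in the controls. Whether a step is 1 fragment is not given by the files.

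Egf made up nearly all of the ligand transcript at lactation and less of it at involution. Its share of the summed FPKM of the 6 ligands was 34.2 to 48.7% in the knockouts and 34.2 to 51.8% in the controls at involution, against 95.8 to 98.7% in the knockouts and 94.8 to 98.6% in the controls at lactation. Of the other ligands, Hbegf, which encodes the heparin-binding EGF-like factor, was the next most abundant by group mean. At involution it stood at 1.41, 1.25, 1.21 and 1.19 FPKM in knockouts M43196, M43767, M44176 and M44440 and at 1.61, 0.986 and 0.874 FPKM in controls M44448, M43768 and M43914. The 4 knockouts lay within the range of the 3 controls. At lactation it stood at 0.438, 0.352 and 1.52 FPKM in knockouts M44174, M42734 and M43767 and at 0.558, 0.461 and 0.120 FPKM in controls M42186, M43768 and M44175, so that 1 knockout library, M43767, stood above the other 5. Hbegf was not second in every library: at lactation Areg exceeded it in control M42186 and Btc in control M44175. In involution control M44448 Hbegf, at 1.61 FPKM, exceeded Egf, at 1.38 FPKM. On the step scale above, lactation knockout M43767 held 41 Hbegf steps, against 2 to 14 steps in the other 5 lactation libraries.

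Tgfa, which encodes transforming growth factor alpha, stood at 0.533, 0.892, 0.805 and 0.591 FPKM in knockouts M43196, M43767, M44176 and M44440 at involution and at 0.694, 0.559 and 0.870 FPKM in controls M44448, M43768 and M43914. At lactation it ran from 0.0200 to 0.0363 FPKM in the knockouts and from listed at 0 to 0.150 FPKM in the controls. Every involution library lay above every lactation library, as deposited and after joint rescaling (log2 difference 0.70 and 0.45), whereas knockouts and controls overlapped at each stage. The medians over all genes were 1.09 and 0.19 on these scales, so the deposited difference of Tgfa lay below the median and the rescaled one above it. The pseudocount of 1 compresses a difference at such levels, and with a pseudocount of 0.1 the deposited difference was 2.48. A median over all genes is not given here for that pseudocount, so 2.48 cannot be set against 1.09.

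Btc encodes betacellulin, a ligand of EGFR and ERBB4. At involution it stood at 0.459, 1.105, 1.05 and 0.871 FPKM in knockouts M43196, M43767, M44176 and M44440 and at 0.333, 0.240 and 0.682 FPKM in controls M44448, M43768 and M43914. Of the 4 knockouts, 3 lay above all controls, and knockout M43196, the shallowest library, lay inside the range of the controls. At lactation Btc stood at 0.0547, listed at 0 and 0.0602 FPKM in knockouts M44174, M42734 and M43767 and at 0.0971, 0.0468 and 0.341 FPKM in controls M42186, M43768 and M44175.

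Areg, which encodes amphiregulin, was above 0 in all 4 knockouts and listed at 0 in all 3 controls at involution. The knockouts M43196, M43767, M44176 and M44440 stood at 0.308, 0.160, 0.0626 and 0.498 FPKM. These values, times depth, were 2, 2, 1 and 10 steps of the smallest of them, so that the deepest library held 10 of 15 steps. Among the 19110 genes above 0 in at least 1 involution library, 15 (0.0785%) were above 0 in all knockouts and listed at 0 in all controls, and 11 (0.0576%) showed the opposite. At lactation Areg was listed at 0 in all 3 knockouts and in controls M43768 and M44175, and control M42186 stood at 0.609 FPKM, the highest value of the 13 libraries. Amphiregulin transcript thus also occurred in a wildtype gland. Ereg, which encodes epiregulin, was near 0 throughout. It ran from listed at 0 to 0.0792 FPKM in the knockouts and from listed at 0 to 0.0272 FPKM in the controls at involution, a total of 10 and 2 steps, and at lactation only knockout M44174 was above 0, at 0.0372 FPKM.

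Neither stage gave a called difference between knockout and control for any member. The tests used limma on log2(rescaled FPKM + 1), two-sided, and p was adjusted by Benjamini-Hochberg across every gene in the fit, with 0.05 as the limit. Of the 10 members, 5 passed the expression filter (1 FPKM or more in 3 or more of the libraries compared) at involution, 4 at lactation and 5 in the joint fit of the stages, and 0 were called, also at an unadjusted p under 0.05. Over all genes 0.0719% were called at involution, 0.0105% at lactation and 0.0789% for the change in knockout effect from stage to stage, and 6.84%, 2.38% and 3.35% had an unadjusted p under 0.05. For the members left out by the filter, fits with no filter gave an unadjusted p of 0.0240 for Areg and 0.0425 for Btc at involution (log2 difference 0.32 ± 0.11 and 0.41 ± 0.16, SE, adjusted p = 0.779 and 0.844 with limma). For the change in effect between stages the unadjusted p was 0.0370 for Areg and 0.0211 for Btc, with an adjusted p of 0.983 for both in limma. The percentages above are of genes that passed the filter, and the matching share without the filter is not given here. The change in effect also draws on single lactation controls. Areg was above 0 at that stage only in M42186, at 0.609 FPKM, and Btc was highest in M44175, at 0.341 FPKM.

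At involution the 3 tested receptors all had negative differences with intervals that included 0. Erbb3 averaged 9.33 ± 2.55 FPKM in the knockouts and 14.3 ± 5.71 FPKM in the controls (SD, n = 4 and 3), with a log2 difference of -0.50 ± 0.29 (SE, 95% interval -1.18 to 0.18, adjusted p = 0.902 with limma). Erbb2 averaged 7.64 ± 1.36 FPKM in the knockouts and 9.88 ± 1.24 FPKM in the controls, with a log2 difference of -0.32 ± 0.17 (95% interval -0.71 to 0.08, adjusted p = 0.883). In Erbb2 only knockout M44440 reached the range of the controls. Egfr averaged 4.66 ± 1.18 FPKM in the knockouts and 5.56 ± 0.603 FPKM in the controls, with a log2 difference of -0.21 ± 0.19 (95% interval -0.65 to 0.22, adjusted p = 0.963). Over all 12509 genes tested at involution the median difference was 0.01, and the groups did not overlap in 7.09% of them, whereas they overlapped in all 5 tested members. At lactation the groups did not overlap in 6.06% of 9560 genes and overlapped in all 4 tested members.

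The intervals for the ligands were of similar width. At involution Egf averaged 2.15 ± 0.591 FPKM in the knockouts and 1.95 ± 0.567 FPKM in the controls (log2 difference 0.12 ± 0.20, 95% interval -0.34 to 0.57, adjusted p = 0.996 with limma). A rise of Egf in the knockouts as large as its difference between the stages lies outside this interval. A fall of that size could not be seen, because the controls averaged 1.95 FPKM and 1 was added before the log2. Hbegf averaged 1.26 ± 0.103 and 1.16 ± 0.396 FPKM in knockouts and controls (log2 difference 0.10 ± 0.17, 95% interval -0.29 to 0.48, adjusted p = 0.996). At lactation Egf averaged 32.0 ± 4.04 FPKM in the knockouts and 29.8 ± 5.25 FPKM in the controls (log2 difference 0.17 ± 0.24, 95% interval -0.39 to 0.73, adjusted p = 0.998). Egfr, Erbb2 and Erbb3 differed by 0.19 ± 0.20, 0.15 ± 0.20 and 0.01 ± 0.22 at lactation (adjusted p = 0.998, 0.998 and 0.999). The sign at lactation turned without control M44175 for Erbb2 (-0.02) and in several settings for Erbb3.

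The knockout effect did not differ detectably between the stages. The effect at involution minus that at lactation was -0.51 ± 0.39 for Erbb3 (95% interval -1.36 to 0.34), -0.47 ± 0.26 for Erbb2 (-1.03 to 0.09), -0.40 ± 0.28 for Egfr (-1.0005 to 0.20), -0.06 ± 0.29 for Egf (-0.68 to 0.57) and -0.23 ± 0.33 for Hbegf (-0.94 to 0.48), each with an adjusted p of 0.999 in the joint limma fit.

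**Figure D4:**
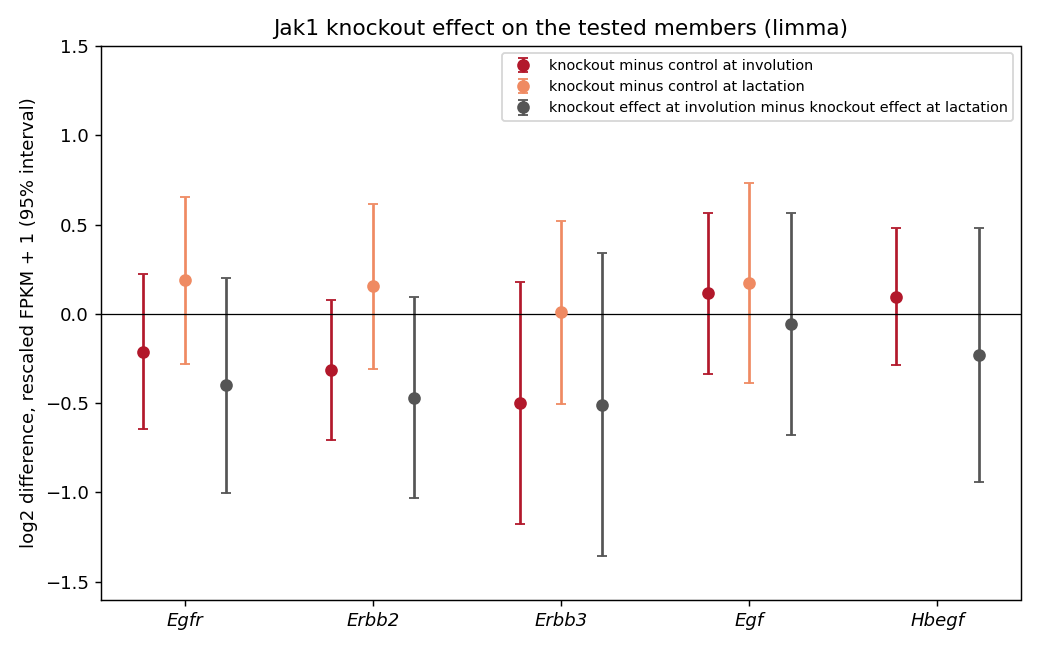
Log2 difference of the members that passed the expression filter, with 95% intervals from limma: knockout minus control at involution (red), knockout minus control at lactation (orange) and the difference of those effects (grey). Every interval includes 0, and Hbegf has no lactation value because it did not pass the filter there.

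Marker lists of other cell types differed in how they stood between knockouts and controls. At involution the 8 fibroblast markers were all on the positive side (median log2 difference 0.79, summed 327 to 874 FPKM in the knockouts and 200 to 464 FPKM in the controls), as were all 8 adipocyte markers (median 0.67, summed 4625 to 16655 FPKM in the knockouts and 4259 to 8412.5 FPKM in the controls). The adipocyte level was not high in every knockout: the mean log2 over the list was 6.44 in knockout M44440 and 8.10 to 8.69 in the other 3 knockouts, against 6.78 to 7.89 in the controls. Of 9 basal epithelial markers 8 were positive (median 0.40, summed 477 to 559 FPKM in the knockouts and 252 to 428 FPKM in the controls, none at 0), and none of these markers passed the threshold. At lactation 7 of 7 tested fibroblast and 8 of 8 adipocyte markers were positive as well (median 0.73 and 0.83). So were 6 of 6 tested endothelial markers (median 0.59, all 7 markers summed to 31.6 to 46.4 FPKM in the knockouts and 21.3 to 26.0 FPKM in the controls). Of the 10 luminal markers 4 were positive at lactation (median -0.09). Lymphocyte markers summed to 57.9 FPKM in lactation control M43768, against 1.91 and 1.12 FPKM in the other controls and 0.564 to 4.00 FPKM in the knockouts. The 10 luminal markers had a median of -0.03 at involution. Of 9 macrophage markers 7 were positive (median 0.33, summed 258.5 to 751 FPKM in the knockouts and 303 to 424 FPKM in the controls), and of 7 endothelial markers 5 (median 0.22, summed 102 to 193 FPKM in the knockouts and 110 to 155 FPKM in the controls). The neutrophil list had a median of 0.12 over 3 tested markers, and its sum was 467 FPKM in knockout M43196 and 33.7 to 67.02 FPKM in the other 3 knockouts, against 54.3 to 234 FPKM in the controls. Skeletal muscle markers varied widely between libraries (median 0.02, summed 4.27 to 4441 FPKM in the knockouts and 55.4 to 1151 FPKM in the controls), and 3 of 4 tested lymphocyte markers were positive (median 0.15). Milk secretion markers had a median of -0.37 over 4 tested genes, 2 positive and 2 negative, of which 1, the casein gene Csn1s2a, was called lower. It is listed at 0 in all 4 knockouts at involution and in all 6 lactation libraries, and at 20351 to 41984 FPKM in the involution controls, so its zeros may be entries without an estimate. With it the list summed to 13504 to 46132 FPKM in the knockouts and 44534 to 97274 FPKM in the controls. Skin keratinocyte markers summed to 201 to 522 FPKM in the knockouts and 146 to 229 FPKM in the controls at involution. Sbsn stood at 166 to 318 FPKM in the knockouts and 144 to 227 FPKM in the controls. It made up most of the sum in every involution library except knockout M43767, which had the sum of 522 FPKM. Among the knockouts Krtdap reached 169 FPKM and Krt10 53.5 FPKM, against at most 0.425 and 3.59 FPKM in the controls. By the mean log2 over the list knockout M43767 stood apart, at 4.56, against 1.16 to 1.22 in the other 3 knockouts and 1.06 in each control, and it was the one involution library with none of the 9 markers at 0. Control M42186, the lactation library with Areg, had the highest summed basal markers of its stage, 332 FPKM, against 141 to 264 FPKM in the knockouts and 141 and 143 FPKM in the other controls. The part of these markers in the values of Areg, Btc and the receptors was not tested.

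Other genes of the pathway were read from lists of 66 genes in 5 groups, all of them in the tables, and none was called at either stage. Of the other EGF family ligands, only Nrg4, a neuregulin that binds ERBB4, passed the filter. It averaged 10.3 ± 5.90 FPKM in the knockouts and 6.93 ± 4.05 FPKM in the controls at involution (log2 difference 0.49 ± 0.55, adjusted p = 0.974 with limma), and 2.05 ± 0.415 and 1.99 ± 1.08 FPKM at lactation. Nrg4 was thus more abundant than any of the 6 EGFR ligands at involution by group mean. Nrg1, the neuregulin that binds ERBB3 and ERBB4, ran from 0.0984 to 0.323 FPKM in the knockouts and from listed at 0 to 0.334 FPKM in the controls at involution. Epgn ran up to 0.614 FPKM, Nrg2 up to 0.870 FPKM and Nrg3 up to 0.0636 FPKM at that stage.

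Of the 8 genes of ligand shedding, 7 were tested at involution, 3 with a positive and 4 with a negative difference (median -0.09). Adam19 averaged 1.16 ± 0.263 FPKM in the knockouts and 0.851 ± 0.468 FPKM in the controls. Adam9, a membrane protease, averaged 19.3 ± 4.77 FPKM in the knockouts and 34.4 ± 16.2 FPKM in the controls (log2 difference -0.72 ± 0.31, adjusted p = 0.727 with limma), with overlapping groups. All 22 adaptors and downstream kinases were tested, 4 positive and 18 negative at involution (median -0.11) and 14 positive and 6 negative of 20 at lactation (median 0.11). Pik3r1, the regulatory subunit of PI3 kinase, averaged 83.6 ± 14.04 FPKM in the knockouts and 120.1 ± 31.5 FPKM in the controls at involution (log2 difference -0.47 ± 0.22, adjusted p = 0.790). The adaptor gene Gab2 averaged 3.00 ± 0.434 and 3.81 ± 0.118 FPKM in knockouts and controls, with the groups apart (-0.25 ± 0.14, adjusted p = 0.885).

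Of 15 tested feedback inhibitors 7 were positive and 8 negative at involution (median -0.10). Errfi1, which encodes an inhibitor that binds the EGFR and ERBB2 kinase domains, averaged 17.6 ± 4.32 FPKM in the knockouts and 26.4 ± 3.03 FPKM in the controls (log2 difference -0.55 ± 0.20, adjusted p = 0.639 with limma). Dusp5, a phosphatase of ERK, averaged 2.45 ± 0.370 and 6.25 ± 4.52 FPKM in knockouts and controls, with the groups apart (-0.88 ± 0.36, adjusted p = 0.701). Of 11 tested ERK-induced genes 6 were positive and 5 negative (median 0.04), with the smallest p values in opposite directions. Fos, an immediate early transcription factor, averaged 11.9 ± 3.97 FPKM in the knockouts and 25.3 ± 2.80 FPKM in the controls (-1.05 ± 0.26, adjusted p = 0.412). Ccnd1, the cyclin D1 gene, averaged 11.2 ± 3.08 and 3.37 ± 0.445 FPKM in knockouts and controls (1.48 ± 0.22, adjusted p = 0.0898). At lactation the smallest p of these lists belonged to the immediate early gene Ier2, at 4.68 ± 0.354 FPKM in the knockouts and 7.61 ± 1.32 FPKM in the controls (-0.53 ± 0.20, adjusted p = 0.998 with limma). Fos (-0.56 ± 0.56), Spry2 (0.40 ± 0.19), Spry1 (0.45 ± 0.35), Plcg1 (0.39 ± 0.25), Ptpn11 (0.38 ± 0.29), Adam15 (0.56 ± 0.29), Rhbdf2 (0.25 ± 0.25) and Nrg4 (0.13 ± 0.26) had the same adjusted p. For the change in effect between stages the values were 1.18 ± 0.49 for Ccnd1, 0.29 ± 0.40 for Phlda1, -0.84 ± 0.45 for Dusp5, -0.60 ± 0.33 for Socs4, -0.72 ± 0.36 for Plcg1 and -0.34 ± 0.18 for Shc1. They were -0.67 ± 0.40 for Adam9, -0.43 ± 0.32 for Adam15 and 0.35 ± 0.70 for Nrg4, each with an adjusted p of 0.999.

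Between the stages some of these genes did not overlap after joint rescaling, and those named here were chosen after their values were seen. The sheddase gene Adam15 and Rhbdf2, which encodes a partner of ADAM17, were higher at involution. Among the downstream kinases Mapk3 was higher in all involution libraries than in all lactation libraries, with a log2 difference on the deposited scale of 2.79 against the median of 1.09. Akt2 was higher (1.98) and Akt1 lower (-0.41), and Lrig1, which encodes an inhibitor of ERBB receptors, was lower (0.27 as deposited). Jointly rescaled, the stages did not overlap in 15.2% of all genes with involution higher and in 9.77% with involution lower. The corresponding counts were 6 higher and 4 lower of 22 adaptors and kinases and 1 and 1 of 15 feedback inhibitors. They were 2 and 0 of 7 genes of ligand shedding and 3 and 1 of 11 ERK-induced genes, and Nrg4 overlapped.

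Correlations between members from library to library were weak. Over the 13 libraries, each centred on the mean of its table on the log2 scale, Pearson r between Egfr, Erbb2, Erbb3 and Egf ran from -0.21 (Erbb2 with Egf) to 0.28 (Erbb3 with Egf). Among 9463 other genes that passed the filter at both stages, those most like Erbb2 were Sltm (r = 0.939), Sbno2 (0.912) and Atg2b (0.910). Erbb3 was most like Glce (0.908), Sox4 (0.864) and Ipo7 (0.846), Egfr most like Plekho2 (0.849), Lclat1 (0.832) and Chtf8 (0.824), and Egf most like Prkaa2 (0.845), Erap1 (0.840) and Slc27a3 (0.784). The points share libraries, depth and scaling, and the highest of so many coefficients is large by selection, so these are descriptions.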

How the data were processed

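Each stage has a table of FPKM per gene symbol for whole mammary glands, as deposited by the authors. The submitters' processing notes name CASAVA, cutadapt, TopHat and mm9, without versions; the program behind the FPKM, its annotation and its scaling were not given in the sources used here. Libraries were divided by median-of-ratios factors within a table and taken to log2(FPKM + 1), which understates differences of low genes. Fits used limma 3.58.1 in R 4.3.3 (intensity trend, no covariates) on genes that reached 1 FPKM in 3 or more libraries, and were tested on simulated data. With a set noise level and genes well above the filter, 100% of 4-fold changes were recovered. Of 2-fold changes, 88% were recovered at lactation, 78% at involution and 37% for the change in effect. False calls made up 3.09%, 4.81% and 8.67% of those called. Groups come from library titles; within a stage libraries carry different mouse numbers, and the labels give no litters or batches. Members and lists were chosen with earlier results of these data known. Pathway genes named are the 2 with the smallest p per list and comparison, and genes alike the 3 with the highest r. The stage, ratio and step descriptions were chosen after values were seen. Relative depth gives no fragment count, so no counting interval is given. Alternatives were a pseudocount of 0.1, no filter, other scalings, array weights, robust empirical Bayes leaving out each library and, added after seeing the data, mouse number as a random block. A result on 1 pathway gene is not reported here.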

Additional observations from a re-analysis of the deposited data

Results flagged for a closer look

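In the knockout group at involution, the Egf value of mouse M44176, 3.04 FPKM, stood apart from the other 3 libraries, which lay between 1.81 and 1.92 FPKM. Its distance to the nearest of them, divided by the range of the 4 values, exceeded Dixon's 95% critical value for 4 samples. About 1 in 20 groups is marked in this way by chance, and 10 genes were examined in this group. Without that library the Egf difference between knockout and control at involution was -0.01.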

How the results depend on the processing

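Within a stage no mouse number is shared, so no block could be fitted. In the joint fit 2 numbers stand at both stages; fixed mouse terms leave 0 residual degrees of freedom, and mouse number as a random replicate block (limma's duplicateCorrelation, chosen after seeing the data, estimated correlation 0.697) gave 20 genes called for the change in effect, against 10 without it. No member was called under any alternative run. Array weights gave 20 genes called at involution, 9 at lactation and 16 for the change in effect between stages, robust empirical Bayes 14 at involution, and a pseudocount of 0.1 and scaling outside milk proteins and short RNAs 2 each at lactation. Leaving out 1 library gave 2 to 9 genes at involution (2 without control M44448 or M43768, 3 without M43914), 0 to 3 at lactation and 6 to 12 for the change in effect. Signs turned for small log2 differences, and the cause was not tested. At lactation array weights gave -0.020 for Erbb2, -0.28 for Erbb3 and -0.044 for Egf, and Erbb3 was -0.041 with no rescaling and -0.033 with quantile normalization. At involution Hbegf was -0.0016 with quantile normalization, and the change in effect for Egf was 0.13 with array weights. Leaving out 1 library gave -0.021 to 0.25 for Erbb2 and -0.13 to 0.17 for Erbb3 at lactation, -0.018 to 0.24 for Egf and -0.0046 to 0.25 for Hbegf at involution, and -0.21 to 0.069 for Egf and -0.40 to 0.065 for Hbegf for the change in effect. Joint rescaling of the stages, chosen after seeing the data, gave -0.041 for Areg and -0.022 for Hbegf. Low values limit Areg, Ereg, Erbb4, Btc and Tgfa, and whether low depth or low expression is the reason was not tested.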
